A study of Homo sapiens with 12 samples.

Results

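The E2F transcription factor family was followed here through its 8 E2F genes (E2F1 to E2F8) and the 2 genes of their dimerization partners, TFDP1 and TFDP2, which encode the DP proteins. These 10 genes were found by symbol among the 57773 genes of the deposited expression table, and each had 1 row. Cells were U87, an established human glioblastoma line, either as parental cells or as a derivative that the labels call resistant to JQ1. Each line received DMSO (the solvent control), 1000 nM JQ1 or 1000 nM dBET6 for 24 h, and each of these 6 groups held 2 polyA RNA libraries, 12 in all. JQ1 displaces the BET proteins, readers of acetylated chromatin, from the sites they bind. dBET6 couples a BET-binding group related to JQ1 with one that recruits the ubiquitin ligase subunit cereblon, so that BET proteins are degraded. How resistance was raised, and whether the resistant line was 1 clone, is not given in the sources used here. Whether the libraries of a group came from separate cultures is not stated, and the p-values rest on the spread between libraries alone, which may be technical.

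E2F proteins bind promoters of genes for DNA replication and cell division, mostly as heterodimers with a DP protein. E2F1, E2F2 and E2F3 act mainly as activators once the retinoblastoma protein RB releases them, whereas E2F4 and E2F5 act mainly as repressors together with the RB relatives p107 (RBL1) and p130 (RBL2). E2F6 represses with Polycomb partners and without RB, and E2F7 and E2F8 bind DNA without a DP protein and hold down E2F target genes late in S phase. Several E2F genes are E2F targets themselves, and in glioblastoma the RB pathway that restrains them is commonly lost.

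Promoter sequence is shown first for the 3 activator genes, because their mRNA fell with JQ1 in both lines, and for E2F4 as a repressor. RefSeq's table of promoters (build GRCh38.p14, 250 bases before to 50 after a start site) matched 8 of the 10 members with 11 promoters. Each line below gives the 100 bases before a start site, on the gene's strand. Capitals mark exact matches, on either strand, to 5 forms of the E2F site: TTTCCCGC, TTTCGCGC, TTTGCCGC, TTTGGCGC and TTTCGCGG. The last of these was added after the sequences had been seen. E2F1 lies at chr20:33686386-33686485 on the minus strand, E2F2 at chr1:23531234-23531333 on the minus strand, the upstream and downstream E2F3 promoters at chr6:20401779-20401878 and chr6:20403514-20403613 on the plus strand, and E2F4 at chr16:67192055-67192154 on the plus strand.
E2F1: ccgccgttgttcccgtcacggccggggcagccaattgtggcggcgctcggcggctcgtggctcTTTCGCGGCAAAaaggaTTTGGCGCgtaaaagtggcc
E2F2: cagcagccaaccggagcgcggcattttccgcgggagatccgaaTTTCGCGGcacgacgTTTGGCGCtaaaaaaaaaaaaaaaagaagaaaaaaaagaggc
E2F3, upstream promoter: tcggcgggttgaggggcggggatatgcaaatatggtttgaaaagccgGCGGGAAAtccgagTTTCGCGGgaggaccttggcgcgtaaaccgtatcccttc
E2F3, downstream promoter: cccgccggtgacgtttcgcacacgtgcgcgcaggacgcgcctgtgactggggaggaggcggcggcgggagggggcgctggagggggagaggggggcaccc
E2F4: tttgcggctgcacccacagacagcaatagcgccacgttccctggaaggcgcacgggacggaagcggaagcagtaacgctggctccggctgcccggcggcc

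E2F1, E2F2 and the upstream E2F3 promoter each held the form TTTCGCGG close to the start. Of all 35116 promoters of this length 0.416% held it, which shows nothing about these genes, since the form was added after their windows had been seen. E2F1 held it from -37 to -30, E2F2 from -57 to -50 and E2F3 from -39 to -32, counted from the start site. E2F1 and E2F2 also held TTTGGCGC (0.652% of promoters). In E2F1 a reverse match to TTTGCCGC (0.607% of promoters) overlapped TTTCGCGG, so that 12 capitals run together, and in E2F3 a reverse match to TTTCCCGC (1.63%) stood from -53 to -46. TFDP1 held TTTCGCGC (0.515%) in reverse from -120 to -113. None of these 5 forms was found in the windows of E2F4, E2F6, E2F7, any of the 3 TFDP2 promoters or the downstream E2F3 promoter. The letters CCAAT, read on both strands, were in 34.6% of all promoters, with 3 matches in E2F1, 4 in the upstream E2F3 window, 4 in E2F7 and 2 in 1 of the TFDP2 promoters. The CHR letters TTTGAA or TTTAAA were in 24.0% of all promoters, and among the members only in the upstream E2F3 promoter and in 2 of the TFDP2 promoters. A match is a run of letters and not a measured binding site.

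Estimated counts per library ran from 24732177 to 40388589. The labelled cell type was checked against markers in the deposited FPKM, fragment counts scaled for transcript length and library depth. The mesenchymal glioma markers VIM (2908 to 11067), CD44 (242 to 628) and CHI3L1 (139 to 2226) were high in every library, whereas GFAP stayed at 1.58 to 6.39, OLIG2 at 0.706 or below, and SOX2 at 1.66 or below with 0 in 4 libraries. Defining markers of epithelial (EPCAM, KRT18, KRT19), blood (PTPRC, CD3E), endothelial (VWF, CDH5) and neuronal (RBFOX3) cells were each at 0.62 or below. Other genes of those lists were higher, some above GFAP: the neuronal SNAP25 (2.57 to 10.6), MAP2 (1.22 to 7.16) and SYT1 (up to 3.67), the epithelial KRT8 (up to 6.30) and CDH1 (up to 2.96), CD14 (up to 6.14) and KDR (up to 2.18). The 4 dBET6 libraries stood apart from the other 8 in composition. Mitochondrial mRNA made up 3.02% to 3.75% of their counts and 1.40% to 2.59% of the counts elsewhere. Their 50 most highly counted genes held 24.4% to 29.5%, compared with 17.3% to 17.7% under JQ1 and 11.9% to 12.4% under DMSO. The deposited FPKM is not on 1 common total: a library's FPKM summed to between 649818 and 685757 under DMSO, 757817 and 812174 under JQ1, and 1711308 and 2298108 under dBET6, where MIR3648 alone held 146979 to 206472. FPKM therefore stands higher relative to TPM, which sums to 1 total, in dBET6 libraries, and levels across treatments depend on which is read. This composition moves with every JQ1 and dBET6 result that follows, and its part in them was not tested.

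By gene total, TFDP1 was the most abundant member in every group, and in parental cells under DMSO its FPKM was 133 and 152 in the 2 libraries. E2F4 (79.2 and 78.6) and E2F1 (73.1 and 71.7) followed, so a repressor and an activator stood at nearly equal levels, with E2F4 above E2F1 in both libraries. E2F6 (17.9 and 20.4) and TFDP2 (17.5 and 20.5) came next and overlapped, so their order is not beyond their spread. E2F8 (12.5 and 11.8), E2F2 (6.09 and 6.46), E2F3 (4.56 and 4.74) and E2F5 (4.06 and 4.39) were lower and kept that order without overlap. E2F7 was close to the floor in all 12 libraries, with an FPKM between 0.005 and 0.169 and 1 to 18 estimated counts. Right below TFDP1 stood E2F4 and then E2F1 in 5 groups, and E2F1 above E2F4 only in parental cells under dBET6. Besides E2F6 and TFDP2, which overlapped in parental cells under all 3 treatments, neighbours overlapped only under dBET6: E2F5 with E2F2 and E2F2 with E2F8 in parental cells, E2F5 with E2F8 and E2F2 with E2F3 in resistant cells. Since these are bulk libraries, fewer cells that express a gene and less mRNA per cell cannot be told apart in any value given here.

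**Figure D1:**
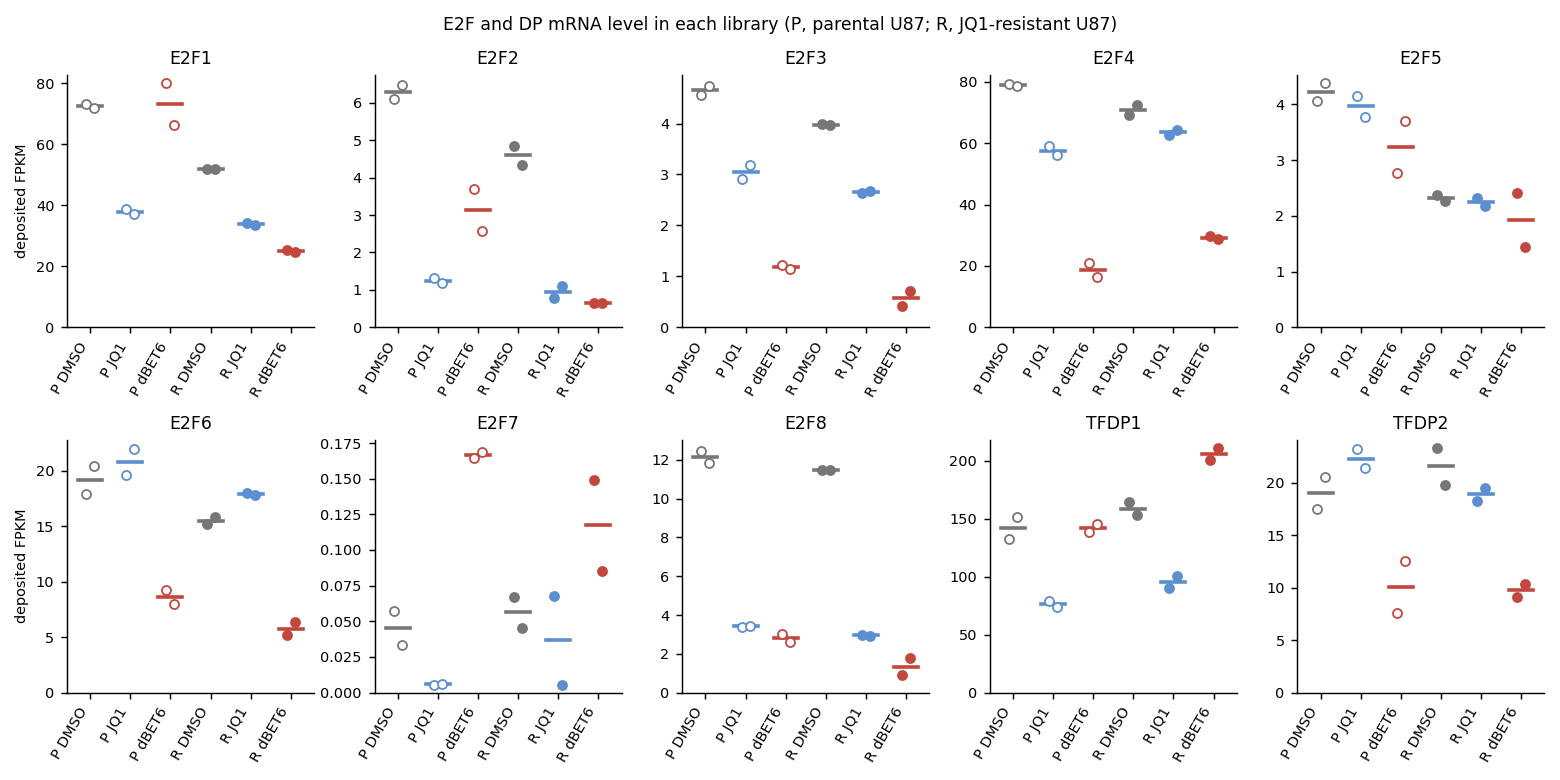
Deposited FPKM of the 10 members in the 12 libraries, 1 panel per gene with its own axis; points are libraries (open for parental, filled for resistant cells), bars are means of the 2 libraries of a group. On this scale E2F1 is near its DMSO level in parental cells under dBET6 (80.1 and 66.4; in TPM it is lower) and falls to 25.3 and 24.8 in resistant cells, while E2F4 falls in both lines.

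JQ1 lowered the activator genes E2F1, E2F2 and E2F3, the repressor E2F8 and the DP partner TFDP1 in both lines, and left E2F5 and E2F6 with no called change. Of the 10 members 7 were called lower and 0 higher in parental cells, and likewise 7 and 0 in resistant cells. A gene was called at an adjusted p under 0.05 in edgeR's quasi-likelihood test over the 19093 genes that passed the filter on low counts. All 10 members passed that filter, but E2F7 reached its level in only 5 of the 12 libraries. The JQ1 libraries, with 1 or 2 E2F7 counts each, were below that level. E2F7 is included in the counts of called members. Of all tested genes, 26.1% were called lower and 22.8% higher with JQ1 in parental cells, and 23.1% lower and 20.8% higher in resistant cells. The members' median log2 fold change was -0.77 in parental and -0.57 in resistant cells, beside a median over all tested genes of 0.0058 and 0.0088.

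E2F2, an activator, showed the largest fold change with JQ1 among the members other than E2F7. Its FPKM was 6.09 and 6.46 under DMSO and 1.31 and 1.17 under JQ1 in parental cells, and 4.84 and 4.35 against 0.782 and 1.11 in resistant cells. Every JQ1 library lay below every DMSO library. The log2 fold change was -2.36 ± 0.14 (SE, n = 2 per group, as for all fitted values here) in parental cells, which is 5.14-fold lower (edgeR adjusted p = 3.54e-13), and -2.29 ± 0.14 in resistant cells (edgeR adjusted p = 1.43e-12).

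E2F8, the atypical repressor of S-phase genes, moved in the same direction. FPKM was 12.5 and 11.8 under DMSO against 3.39 and 3.43 under JQ1 in parental cells, and 11.5 in both DMSO libraries against 2.97 and 2.92 in resistant cells. The log2 fold changes were -1.84 ± 0.13 (edgeR adjusted p = 8.67e-12) and -1.86 ± 0.13 (edgeR adjusted p = 1.19e-11). Its relative E2F7, with 7 and 13 estimated counts in the parental DMSO libraries and 1 in each parental JQ1 library, was called lower in both lines. Counts this low give no usable fold, and in resistant cells the E2F7 FPKM of the JQ1 libraries (0.0681 and 0.00542) overlapped that under DMSO (0.0670 and 0.0454). The E2F7 call was lost without parental DMSO replicate 1 (log2 change -2.51) in parental cells, and without resistant DMSO replicate 1 (-1.75) or either resistant JQ1 library (-2.87 and -1.95) in resistant cells.

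E2F1, the activator that also drives apoptosis genes, fell less. Its FPKM went from 73.1 and 71.7 to 38.8 and 37.1 in parental cells and from 51.9 and 51.8 to 34.0 and 33.4 in resistant cells, without overlap in either line. The log2 fold change was -0.94 ± 0.09 in parental cells (edgeR adjusted p = 1.35e-09) and -0.60 ± 0.09 in resistant cells (edgeR adjusted p = 2.88e-06). E2F3, the third activator, fell by 0.59 ± 0.12 and 0.53 ± 0.12 on the log2 scale (edgeR adjusted p = 0.000134 and 0.000625).

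TFDP1, the main DP partner, went from 133 and 152 to 79.3 and 74.0 in parental cells and from 164 and 153 to 90.2 and 100.2 in resistant cells. Its log2 fold changes were -0.98 ± 0.08 (edgeR adjusted p = 1.03e-10) and -0.63 ± 0.08 (edgeR adjusted p = 3.26e-07). The repressor E2F4 fell by 0.46 ± 0.09 in parental cells (edgeR adjusted p = 0.000126), and its -0.22 ± 0.09 in resistant cells missed the threshold (edgeR adjusted p = 0.0525) and passed it under 6 of the other settings. E2F5 (-0.23 ± 0.19 and -0.32 ± 0.21) and E2F6 (0.10 ± 0.12 and 0.22 ± 0.12) were not called in either line. E2F5 was called lower in resistant cells with mitochondrial counts (-0.90) and E2F6 higher there in a fit of only the libraries compared (0.21), and the sign of E2F6 turned in parental cells when libraries were scaled by total counts (-0.023) and in both lines when scaled by mitochondrial counts (-0.18 and -0.35). TFDP2, the second DP partner, was at 0.0063 ± 0.09 in parental cells (edgeR adjusted p = 0.969) and was called lower in resistant cells at -0.27 ± 0.09 (edgeR adjusted p = 0.0183). That TFDP2 call was lost without any 1 of the 4 resistant DMSO and JQ1 libraries (-0.24 to -0.31) and in limma on log2(FPKM + 1), at -0.18.

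**Figure D2:**
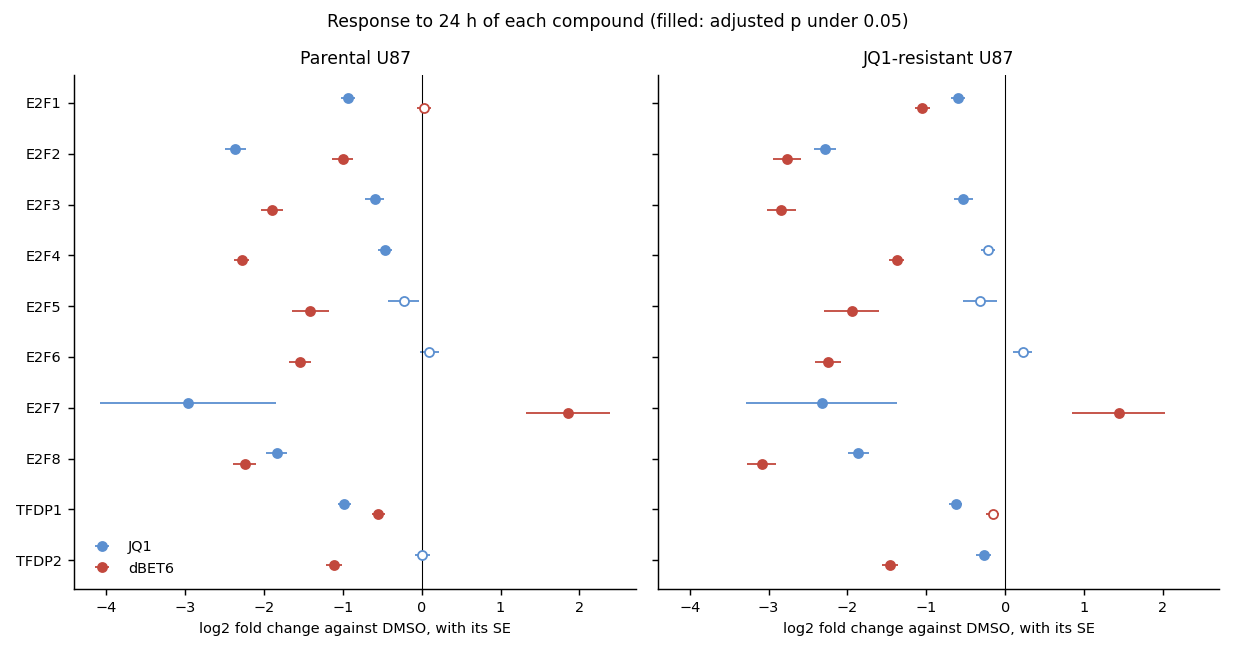
Log2 fold change (with SE) of each member against DMSO of the same line, for JQ1 and dBET6 in parental and resistant cells; filled points were called at an adjusted p under 0.05. E2F1 is at 0.03 with dBET6 in parental cells and at -1.05 in resistant cells, and E2F2 and E2F8 fall with both compounds in both lines.

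With dBET6, the repressors E2F4 and E2F6, the activators E2F2 and E2F3, and E2F8 fell in both lines, while E2F1 fell only in resistant cells by the test. Of the 10 members 8 were called lower and 1 higher in parental cells, with the counts of 8 and 1 also found in the resistant line. The background was high: 39.3% of tested genes were called lower and 37% higher in parental cells, and 39.5% lower and 35.7% higher in resistant cells. The members' median log2 fold change was -1.26 in parental and -1.70 in resistant cells, beside -0.015 and -0.062 over all tested genes. TMM scaling, used throughout, centres the bulk of genes near 0. Scaling by total counts instead moved the median of all genes to -0.65 in parental and -1.14 in resistant cells, and scaling by mitochondrial counts to -1.78 and -2.12. Called genes that were higher made up 48.5% of all called with TMM in parental cells, 30.6% with total counts and 11.4% with mitochondrial counts. Directions below hold relative to the bulk of genes.

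E2F4 and E2F8 fell most in parental cells, by amounts within each other's error. Its FPKM was 79.2 and 78.6 under DMSO and 21.0 and 16.4 under dBET6, and in resistant cells it was 69.3 and 72.4 against 29.7 and 28.7. The groups did not overlap in either line. The log2 fold change was -2.28 ± 0.10 in parental cells, 4.86-fold lower (edgeR adjusted p = 2.68e-17), and -1.37 ± 0.10 in resistant cells (edgeR adjusted p = 4.7e-13).

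E2F1 FPKM under dBET6 was 80.1 and 66.4 in parental cells, on both sides of the DMSO values of 73.1 and 71.7. In resistant cells both dBET6 libraries, at 25.3 and 24.8, lay below both DMSO libraries at 51.9 and 51.8. The log2 fold change was 0.03 ± 0.09 in parental cells (95% interval -0.19 to 0.24, edgeR adjusted p = 0.791) and -1.05 ± 0.09 in resistant cells (edgeR adjusted p = 4.95e-11). The parental value depends on the scaling: E2F1 was called lower with total counts (-0.61, edgeR adjusted p = 3.71e-07) and mitochondrial counts (-1.75), and higher (0.39) with genes of at least 10 CPM (counts scaled to library size) on average. In summed TPM it went from 108.9 and 104.6 to 46.1 and 38.8. Under the 2 other scalings and the 10 CPM filter the change was lower in resistant than in parental cells, with log2 differences of -1.51, -1.36 and -1.04.

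The other activators fell in both lines. E2F2 FPKM was 3.68 and 2.57 in parental cells under dBET6, and 0.656 and 0.663 in resistant cells. On the FPKM scale the parental values lay about the middle between those under DMSO and JQ1. In summed TPM the parental dBET6 libraries, at 2.119 and 1.503, overlapped the JQ1 libraries (1.735 and 1.501), with DMSO at 9.074 and 9.425. E2F2 thus stood midway between DMSO and JQ1 in FPKM but near JQ1 in TPM. Its log2 fold change was -1.004 ± 0.13 (edgeR adjusted p = 1.63e-07) in parental cells and -2.77 ± 0.18 (edgeR adjusted p = 7.94e-14), 6.81-fold lower, in resistant cells. E2F3 FPKM was 1.22 and 1.14 in parental and 0.412 and 0.721 in resistant cells under dBET6, and its log2 fold change was -1.89 ± 0.14 (edgeR adjusted p = 1.16e-12) and -2.84 ± 0.19 (edgeR adjusted p = 9.07e-15).

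E2F8 FPKM was 3.00 and 2.60 in parental and 0.891 and 1.76 in resistant cells, all far below the DMSO range of 11.5 to 12.5. The log2 fold change was -2.24 ± 0.15 (edgeR adjusted p = 1.45e-13) and -3.09 ± 0.18, 8.50-fold lower (edgeR adjusted p = 3.43e-15). E2F7 was the 1 member called higher with dBET6 in each line, on 17 and 18 estimated counts in parental and 7 and 11 in resistant cells, and scaling by mitochondrial counts turned its sign in resistant cells. The E2F7 call in resistant cells was lost without resistant dBET6 replicate 1 (0.97) or resistant DMSO replicate 2 (1.02), and DESeq2 called E2F7 in neither line. E2F6 fell by 1.55 ± 0.14 in parental cells (edgeR adjusted p = 1.13e-10) and by 2.25 ± 0.16 in resistant cells (edgeR adjusted p = 7.03e-13), with FPKM of 9.29 and 8.03 and of 5.17 and 6.37. E2F5 was called lower on counts in both lines (-1.41 ± 0.23 and -1.95 ± 0.35), but the annotation paired only 23% to 64% of its FPKM with transcripts under dBET6, against 78% to 93% under DMSO. On the deposited FPKM, limma gave E2F5 changes of -0.31 and -0.20 on the log2(FPKM + 1) scale, neither called (adjusted p = 0.134 and 0.322).

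TFDP2 was lower with dBET6 in both lines, while the value of TFDP1 depended on the scale. TFDP2 fell by 1.11 ± 0.10 in parental cells (edgeR adjusted p = 1.69e-10) and by 1.46 ± 0.10 in resistant cells (edgeR adjusted p = 5.21e-13). TFDP1 was called lower in parental cells on counts, at -0.55 ± 0.08 (edgeR adjusted p = 8.79e-07), and not in resistant cells, at -0.16 ± 0.08 (edgeR adjusted p = 0.0772). The TFDP1 value in resistant cells was called lower with total counts (-1.24), mitochondrial counts (-2.23), no filter (-0.38) and in 8 of 12 fits that left out a library (-0.20 to -0.24), and higher with genes of at least 10 CPM (0.24). In summed TPM TFDP1 fell from 188 and 209 to 77.6 and 82.4 in parental cells and from 243 and 220 to 85.6 and 90.3 in resistant cells. In the deposited FPKM it was 139 and 146 under dBET6 in parental cells, within the DMSO range, and 201 and 211 in resistant cells, above the DMSO values of 164 and 153. On the log2(FPKM + 1) scale limma put TFDP1 at 0.00071 in parental cells (adjusted p = 0.996) and at 0.37 in resistant cells (adjusted p = 0.00338). The ratio of TFDP1 to TFDP2 FPKM within a library, which does not depend on library scaling, was 7.58 and 7.41 under DMSO, 3.42 and 3.46 under JQ1 and 18.4 and 11.6 under dBET6 in parental cells. In resistant cells it was 7.04 and 7.73, 4.94 and 5.14, and 22.0 and 20.4. With the coding transcript TFDP1-201 in place of the gene, a choice made after seeing the data, the ratio under DMSO and dBET6 overlapped in parental cells (4.40 and 3.54, then 5.60 and 3.39) and was higher under dBET6 in resistant cells (3.64 and 4.08, then 6.88 and 6.60).

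The 2 compounds were then compared directly at the matched dose and time, since the comparisons with DMSO share their control libraries. Of the 10 members 4 were higher and 6 lower with dBET6 than with JQ1 in parental cells, and 2 higher and 8 lower in resistant cells. Among all tested genes 36.2% were higher and 38.4% lower in parental cells, and 35.4% higher and 38.8% lower in resistant cells. The members' medians were -0.76 and -1.17, beside 0.0027 and -0.025 over all tested genes.

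In parental cells E2F1 was 0.96 ± 0.09 higher on the log2 scale with dBET6 than with JQ1 (edgeR adjusted p = 1.98e-10) and E2F2 was 1.36 ± 0.14 higher (edgeR adjusted p = 4.71e-09). Scaling by mitochondrial counts turned both, to -0.51 and -0.12. In resistant cells E2F1 was lower with dBET6, at -0.45 ± 0.09 (edgeR adjusted p = 9.92e-05), a call that ended with genes of at least 10 CPM (-0.044). E2F2 in resistant cells was at -0.48 ± 0.19 (edgeR adjusted p = 0.0274), lost under 7 of the other settings and without resistant JQ1 replicate 2 (-0.29) or either resistant dBET6 library (-0.52 and -0.51).

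E2F4, E2F3, E2F6 and TFDP2 were lower with the degrader in both lines. E2F4 differed from its level with JQ1 by -1.82 ± 0.10 (edgeR adjusted p = 3.22e-15) in parental and -1.15 ± 0.10 in resistant cells, E2F3 by -1.30 ± 0.14 and -2.31 ± 0.19, E2F6 by -1.64 ± 0.14 and -2.47 ± 0.16, and TFDP2 by -1.11 ± 0.10 and -1.19 ± 0.10. E2F8 was 1.23 ± 0.19 lower in resistant cells, whereas its -0.40 ± 0.15 in parental cells (edgeR adjusted p = 0.0201) was lost under 7 of the other settings and without either parental dBET6 library (-0.45 and -0.42). TFDP1 was higher with dBET6 in both lines, by 0.43 ± 0.08 and 0.47 ± 0.08 (edgeR adjusted p = 3.48e-05 and 9.87e-06), but lower in both when scaled by total counts (-0.086 and -0.41) or mitochondrial counts (-1.04 and -1.02). E2F5 was called lower on its partly paired counts (-1.18 ± 0.24 and -1.63 ± 0.35), and E2F7 was called higher in both lines on 1 or 2 counts in each JQ1 library.

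Without drug, 4 members differed between the lines by the test. In resistant cells under DMSO E2F1, E2F2 and E2F5 were lower and TFDP2 was higher than in parental cells, while 17.4% of all tested genes were called higher and 21.2% lower. The members' median was -0.15, beside 0.0044 over all tested genes. E2F1 was -0.48 ± 0.09 (edgeR adjusted p = 8.23e-05), with resistant FPKM of 51.9 and 51.8 below the parental 73.1 and 71.7. E2F2 was -0.45 ± 0.12 (edgeR adjusted p = 0.00443), a call lost without resistant DMSO replicate 2 (-0.37) and in limma on log2(FPKM + 1), at -0.38. E2F5 was -0.91 ± 0.20 on counts (edgeR adjusted p = 0.000507), and its FPKM of 2.37 and 2.27 lay below the parental 4.06 and 4.39 without overlap. TFDP2 was 0.56 ± 0.09 higher on counts (edgeR adjusted p = 2.24e-05), although its FPKM of 23.3 and 19.8 overlapped the parental 17.5 and 20.5 and limma on log2(FPKM + 1) gave 0.17 (adjusted p = 0.565). The activator E2F3 (-0.21), the repressors E2F4 (-0.16), E2F6 (-0.09) and E2F8 (-0.14), and TFDP1 (0.16) were not called, nor was E2F7 on its 6 to 14 counts.

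The response to JQ1 did not differ between the lines for any member by edgeR's test, where 3.62% of all genes had a higher and 2.88% a lower response in resistant cells. The members' median difference was 0.10, beside -0.00081 over all tested genes. At an unadjusted p under 0.05 stood 3 members: E2F1, TFDP1 and TFDP2. DESeq2 called 1 member, TFDP1, and limma on log2(FPKM + 1) called 0. E2F1 differed by 0.33 ± 0.13 (95% interval 0.03 to 0.64, edgeR adjusted p = 0.117) and TFDP1 by 0.35 ± 0.11 (95% interval 0.07 to 0.63, edgeR adjusted p = 0.0628), both toward a smaller fall in the resistant line. These 2 were called when either parental dBET6 library was left out, at 0.34 and 0.34 for E2F1 and 0.36 and 0.36 for TFDP1. For E2F2 and E2F8, the members with the deepest falls, the difference was 0.07 ± 0.19 and -0.02 ± 0.18. It was 0.07 ± 0.17 for E2F3, 0.24 ± 0.13 for E2F4, -0.09 ± 0.29 for E2F5, 0.13 ± 0.17 for E2F6 and -0.28 ± 0.13 for TFDP2, and E2F7 had too few counts for a usable value.

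The response to dBET6 differed between the lines for 7 of the 10 members. E2F1, E2F2, E2F3, E2F6 and E2F8 responded more negatively in resistant cells and E2F4 and TFDP1 less so, against a background of 14.2% of genes with a lower and 13.7% with a higher response. The members' median difference was -0.62, beside -0.050 over all tested genes. Total counts moved the median of all genes in this difference to -0.49 and mitochondrial counts to -0.34.

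By point estimate the difference was largest for E2F2 and then E2F1, both activators, with E2F1 within error of E2F3. E2F1 differed by -1.08 ± 0.13 (95% interval -1.39 to -0.76, edgeR adjusted p = 5.02e-07) and E2F2 by -1.76 ± 0.22 (edgeR adjusted p = 1.41e-06). Both held with total counts (-1.51 and -2.20), with mitochondrial counts (-1.36 and -2.04) and in limma on log2(FPKM + 1), at -1.03 and -0.92 (adjusted p = 0.0009 and 0.0198). The spread between the lines in E2F1 FPKM was 80.1 and 66.4 against 25.3 and 24.8 under dBET6, the widest of any treatment.

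E2F4 moved the other way, by 0.91 ± 0.14 (95% interval 0.57 to 1.24, edgeR adjusted p = 1.36e-05). The E2F4 call ended with scaling by mitochondrial counts (0.63, edgeR adjusted p = 0.125) and held with total counts (0.47, edgeR adjusted p = 0.00363) and on log2(FPKM + 1) (0.78, limma adjusted p = 0.0055). The other 4 calls each depended on single libraries. E2F3 (-0.95 ± 0.23, edgeR adjusted p = 0.0025) and E2F8 (-0.84 ± 0.23, edgeR adjusted p = 0.00706) were no longer called without resistant dBET6 replicate 1, at -0.62 and -0.44. E2F6 (-0.70 ± 0.21, edgeR adjusted p = 0.0146) was lost without parental DMSO replicate 2 (-0.60), parental dBET6 replicate 2 (-0.55) or resistant dBET6 replicate 1 (-0.45). TFDP1 (0.39 ± 0.11, edgeR adjusted p = 0.0114) was lost without resistant DMSO replicate 2 (0.36) or resistant dBET6 replicate 2 (0.35), and turned to -0.051 with total counts. None of these 4 was called in limma on log2(FPKM + 1). E2F5 (-0.53 ± 0.42), TFDP2 (-0.35 ± 0.15, edgeR adjusted p = 0.0753) and E2F7 were not called. TFDP2 passed the threshold with total counts (-0.79), with no filter (-0.42), and without parental dBET6 replicate 1 (-0.46) or resistant dBET6 replicate 2 (-0.50).

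**Figure D3:**
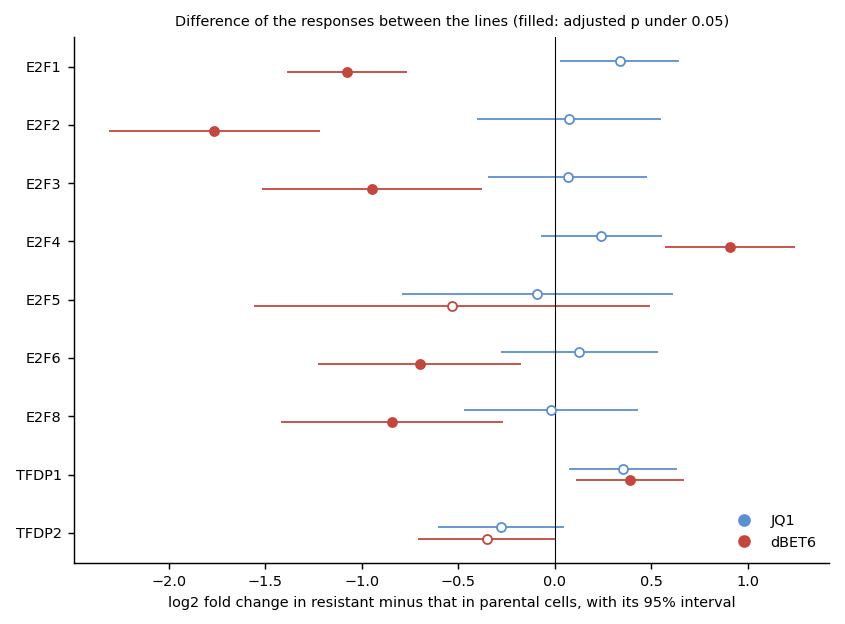
Difference of each member's log2 response between the lines (resistant minus parental) with its 95% interval, for JQ1 and for dBET6; E2F7 is not drawn because of its low counts. The dBET6 differences run from -1.76 for E2F2 to 0.91 for E2F4, and the JQ1 differences stay between -0.28 and 0.35.

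The balance between activators and repressors was read from ratios within a library, which do not depend on how libraries are scaled to each other. The FPKM of E2F1 divided by that of E2F4 was 0.922 and 0.913 in parental cells under DMSO, 0.655 and 0.662 under JQ1, and 3.81 and 4.04 under dBET6. In resistant cells it was 0.749 and 0.715, 0.543 and 0.519, and 0.850 and 0.865. JQ1 thus went with less E2F1 per E2F4 in both lines, while dBET6 went with E2F1 above E2F4 in parental cells and with slightly more E2F1 per E2F4 in resistant cells.

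Summed over E2F1 to E2F8, the activators E2F1 to E2F3 made up 42.4% and 41.8% of the FPKM in parental cells under DMSO, 33.2% and 32.7% under JQ1 and 70.1% and 69.4% under dBET6. E2F4 with E2F5 made up 42.2% and 41.9%, 49.0% and 47.2%, and 19.6% and 19.9%. The high activator share in the parental dBET6 libraries was that of E2F1 (66.1% and 65.7%, against 37.0% and 36.2% under DMSO), while E2F2 and E2F3 together held 4.05% and 3.67%, below their 5.39% and 5.65% under DMSO. In resistant cells the activators made up 38.2% and 37.1% under DMSO, 30.3% and 29.9% under JQ1 and 40.7% and 40.6% under dBET6, with E2F4 and E2F5 at 49.7% and 46.7% under dBET6. E2F7 and E2F8 together stood at 6.0% to 7.3% under DMSO and at 1.6% to 2.9% under either drug.

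**Figure D4:**
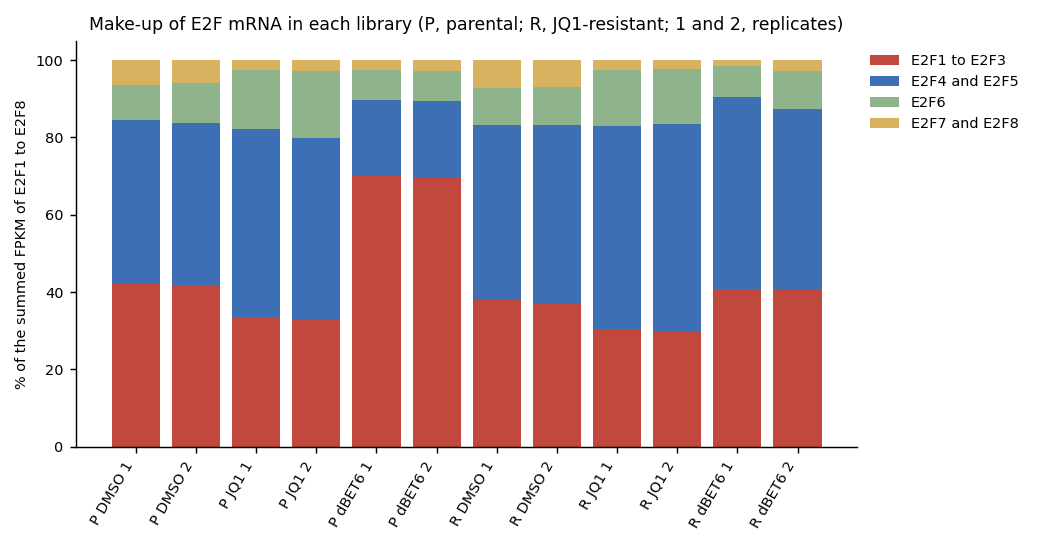
Share (%) of the summed FPKM of E2F1 to E2F8 taken by the activators E2F1 to E2F3, by E2F4 with E2F5, by E2F6 and by E2F7 with E2F8, stacked to 100% in each of the 12 libraries. The activator share is near 70% in the parental dBET6 libraries and between 29.9% and 42.4% in all other libraries.

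Transcripts of a gene were compared within each library as shares of the gene's summed TPM, or in TPM put on the scale of the FPKM table. Kallisto divides reads among overlapping transcripts, so these values are estimates. The gene total of TFDP1 joined 8 paired transcripts, of which 3 took at least 10% of its TPM in some group. Given here are 2 of these 3, which moved differently, and they do not make up the whole total. TFDP1-201 (2648 bases, protein coding) was at 77.0 and 72.7 in parental DMSO cells and at 42.3 and 42.4 under dBET6, and in resistant cells at 84.7 and 80.8 and then 62.6 and 68.4. TFDP1-204 (444 bases, annotated as a processed transcript without a coding frame) was at 22.9 and 36.2 and then 59.7 and 71.5 in parental cells, and at 38.9 and 32.7 and then 92.5 and 101 in resistant cells. On this scale the coding transcript was lower and the short one higher under dBET6 in both lines, without overlap. In TPM itself TFDP1-204 overlapped in parental cells (34.1 and 52.8, then 34.3 and 41.8) and was lower under dBET6 in resistant cells (59.9 and 49.1, then 40.3 and 43.9), so that the rise depends on the FPKM scale and the shares do not. TFDP1-201 thus went from 55.9% of the gene's TPM to 30.7% in parental cells and from 54.4% to 32.4% in resistant cells. On the FPKM scale TFDP1-201 alone was below E2F4 in parental cells under DMSO (79.2 and 78.6). It was below E2F1 there under dBET6 (80.1 and 66.4), and below E2F4 under JQ1 in both lines. In resistant cells it was above E2F4 under DMSO (69.3 and 72.4) and dBET6 (29.7 and 28.7).

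E2F3-201 (4744 bases) and E2F3-202 (4145 bases) begin 288 bases after the upstream and 65 bases after the downstream RefSeq start whose promoters are printed above. E2F3-202 was at 1.70 and 1.6003 in parental DMSO cells, 1.11 and 0.82 under JQ1, and 0.06 in both dBET6 libraries. E2F3-201 was at 2.86 and 3.14, 1.81 and 2.37, and 1.16 and 1.08. The transcript from the downstream start went from 35.5% of the gene's TPM to 31.8% with JQ1 and 5.0% with dBET6 in parental cells. In resistant cells it took 39.3%, 29.2% and 36.2%, where the dBET6 libraries held 0.11 and 0.33 and E2F3-201 held 0.30 and 0.39. The dBET6 shares rest on few reads. All of E2F3 had 114 and 97 estimated counts in the parental and 25 and 47 in the resistant dBET6 libraries.

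The main E2F4 transcript, E2F4-201, took 80.3% of the gene's TPM under DMSO and 51.3% under dBET6 in parental cells, while in resistant cells these shares were 78.7% and 65.2%. The retained-intron transcripts E2F4-208 and E2F4-209 took 10.1% and 11.5% under dBET6 in parental cells. E2F6-203, annotated as a target of nonsense-mediated decay, went from 22.9% under DMSO to 38.05% under JQ1 and 56.2% under dBET6 in parental cells, and from 16.7% to 30.8% and 60.6% in resistant cells, with SDs over the 2 libraries of 2.9 to 11.7 percentage points. E2F1 had 1 paired transcript, E2F1-201, so its gene value holds no such mixture. Processed pseudogenes of E2F3, E2F4 and E2F6 exist, and reads they share with their parent genes are divided by estimate.

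**Figure D5:**
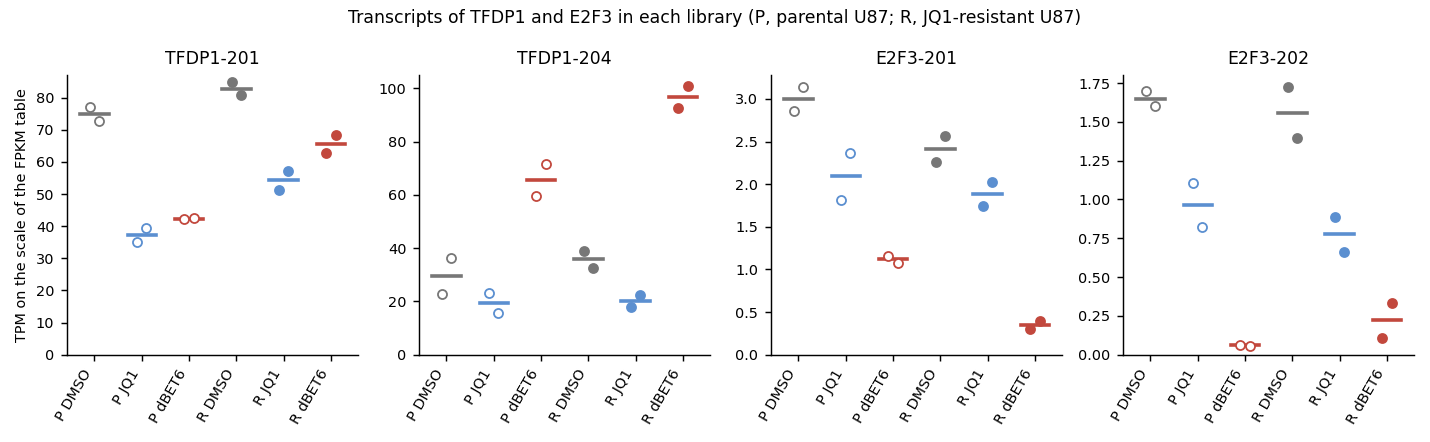
TPM, put on the scale of the FPKM table, of 2 TFDP1 and 2 E2F3 transcripts in the 12 libraries; points are libraries (open for parental, filled for resistant cells) and bars are means of 2. On this scale TFDP1-201 is lower and TFDP1-204 higher under dBET6 than under DMSO in both lines (in TPM itself TFDP1-204 is not higher), and E2F3-202 is at 0.06 in both parental dBET6 libraries.

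Among the pocket proteins that bind E2Fs, RBL1 (p107), itself an E2F target, was lower with JQ1 in parental cells (-1.12 ± 0.11) and lower still with dBET6, at -3.13 ± 0.14 in parental and -3.34 ± 0.15 in resistant cells. RBL1 was also lower with JQ1 in resistant cells (-0.97 ± 0.11). RB1 was not called with JQ1 in parental cells (-0.06 ± 0.12), was called lower in resistant cells (-0.29 ± 0.11, edgeR adjusted p = 0.0395), and fell with dBET6 by 1.68 ± 0.14 and 2.05 ± 0.15, and RBL2 (p130), the partner of E2F4 in resting cells, fell by 1.34 ± 0.10 and 1.14 ± 0.10. RBL2 was lower with JQ1 in both lines (-0.51 ± 0.09 and -1.04 ± 0.09), and more so in resistant cells, by a difference of -0.52 ± 0.13 (edgeR adjusted p = 0.0124).

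The gene lists used here were chosen with earlier results of these data known, so their counts are descriptive and not independent support. Of 46 tested E2F target genes from a list of textbook targets, 39 were lower and 0 higher with JQ1 in parental cells (median -0.75). In resistant cells 38 were lower and 1 higher (median -0.61). With dBET6, 34 were lower and 7 higher in parental cells (median -1.15) and 37 lower and 7 higher in resistant cells (median -2.11). Of all tested genes, 26.1% (parental) and 23.1% (resistant) were lower with JQ1, and 39.3% and 39.5% with dBET6. Higher were 22.8% and 20.8% with JQ1, and 37% and 35.7% with dBET6. The helicase gene MCM5 (-1.70 ± 0.10), the helicase cofactor CDC45 (-1.74 ± 0.11) and the cyclin CCNA2 fell most firmly with JQ1 in parental cells. With dBET6 the mismatch repair gene MSH6 had log2 fold changes of -2.68 ± 0.10 in parental and -3.89 ± 0.11 in resistant cells, and the deubiquitinase gene USP1 of -2.45 ± 0.10 and -3.74 ± 0.13. The dBET6 response was lower in resistant cells for 22 of the 46 and higher for 5 (median -0.52), including the replication factor CDC6 (-1.44 ± 0.15), ATAD2 (-1.52 ± 0.13) and the histone mRNA binding protein SLBP (-1.08 ± 0.12). In DMSO, 22 were lower and 2 higher in resistant cells (median -0.21). Of all tested genes, 14.2% had a lower and 13.7% a higher dBET6 response in resistant cells. In DMSO, 21.2% of all tested genes were lower and 17.4% higher there. For these dBET6 counts scaling matters. With mitochondrial counts 45 of the 46 were lower and 0 higher in parental cells. Under that scaling 15525 of all 19093 tested genes were called there, 11.4% of them higher. With total counts the response was lower in resistant cells for 36 and higher for 1 (median -0.95). In that difference total counts called 7448 of all tested genes, 12.2% of them higher.

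Of the 7 genes of the DREAM and MuvB complexes, which hold E2F4 or B-MYB at cell-cycle promoters, 6 were lower with JQ1 in each line, and 5 (parental) and 6 (resistant) were lower with dBET6, with 1 higher in each line. MYBL2 (B-MYB) fell by 1.63 ± 0.10 and 1.75 ± 0.10 with JQ1 and by 2.71 ± 0.10 and 3.93 ± 0.13 with dBET6, in parental and resistant cells. Upstream of RB, 11 of 16 listed kinases, cyclins and inhibitors were tested, and 8 (parental) and 8 (resistant) were lower with JQ1, with 1 and 2 higher. With dBET6 7 were lower and 3 higher in each line. Of all tested genes, 26.1% and 23.1% were lower and 22.8% and 20.8% higher with JQ1. With dBET6, 39.3% and 39.5% of them were lower and 37% and 35.7% higher. Scaling by mitochondrial counts gave 0 DREAM and MuvB genes higher and 7 lower with dBET6 in each line. Upstream of RB it gave 1 higher and 10 lower in each line. Of all genes called, 11.4% (parental) and 8.94% (resistant) were then higher. CDKN1A, the p21 inhibitor of cyclin-dependent kinases, rose by 1.06 ± 0.09 and 1.40 ± 0.09 with JQ1 and by 5.85 ± 0.09 and 6.76 ± 0.09 with dBET6. CCND1 (cyclin D1), which starts RB phosphorylation, was at -0.07 with JQ1 in parental cells, not called, and rose by 1.01 ± 0.08 in resistant cells, a difference of 1.08 ± 0.12 (edgeR adjusted p = 6.59e-07). The phosphatase gene CDC25A fell by 1.25 with JQ1 and by 2.76 with dBET6 in parental cells and by 4.14 with dBET6 in resistant cells.

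Among 14 tested genes for turnover and activity of E2F proteins, 9 (parental) and 8 (resistant) were lower with JQ1, with 4 and 2 higher, and 11 were lower and 3 higher in each line with dBET6. Of all tested genes, 26.1% and 23.1% were lower and 22.8% and 20.8% higher with JQ1, and 39.3% and 39.5% lower and 37% and 35.7% higher with dBET6. SKP2, the ligase subunit that targets E2F1, fell by 2.37 and 2.92 with dBET6. Of 13 listed genes linked to E2F6 and Polycomb, 9 and 6 were lower with JQ1 and 12 and 10 with dBET6, with 1 higher in each case. The list joins genes of the E2F6 complex PRC1.6 with others, such as EZH2 and EED, that are not part of it. MGA, the DNA-binding scaffold of PRC1.6, fell by 3.48 ± 0.17 and 4.89 ± 0.20 with dBET6, beside the falls of E2F6 itself. Scaled by mitochondrial counts, 0 genes of these 2 lists were higher with dBET6 in either line. Of all genes called, 11.4% (parental) and 8.94% (resistant) were then higher.

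The members' patterns over the 12 libraries were described by Pearson's r of log2 CPM, where libraries of a group share their treatment and no test applies. E2F1 ran with E2F2 (r = 0.91), E2F3 with E2F6 (0.95) and with E2F8 (0.89), and E2F4 with TFDP2 (0.91), whereas r was 0.01 for E2F1 and E2F4. Both of these were called lower with JQ1 in parental cells and with dBET6 in resistant cells. They parted with dBET6 in parental cells, where the E2F1 value depends on the scaling. The protein-coding genes most like E2F1 were ARL16, POLE and UNKL (each 0.98), those most like E2F2 were KIFC1, BLK and SLC9A8 (each 0.98), and those most like E2F8 were IPO8, CEP55 and RAB27A (0.98 or above). NLE1, AP4M1 and PPME1 were most like E2F4 (0.99 or above), and NCAPH, ZNF830 and NEIL2 most like E2F3. Of the 30 genes so named for the 10 members, 2 (ARL16 for E2F1 and NLE1 for E2F4) were also named when log2(FPKM + 1) replaced log2 CPM.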

How the data were processed

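PolyA RNA of 12 libraries (6 groups of 2) was quantified with kallisto and normalised with DESeq2, per the submitters' processing notes, on build hg19, with no versions stated there. The authors deposited estimated counts and TPM per transcript for each library, and 1 table of FPKM per gene. How FPKM was computed was not stated.

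Levels and their order come from the deposited FPKM. For tests, estimated counts were summed per gene through GENCODE release 29 (92.6% of 196354 transcript IDs paired, holding 95.0% to 96.3% of counts) and rounded. Summed TPM, rescaled, lay within 1% of FPKM in every library for 72.3% of 10511 genes checked; E2F5 was among those rebuilt only in part. edgeR 4.0.16 (R 4.3.3) fitted all 12 libraries, 1 mean per group, after filterByExpr and TMM, with robust quasi-likelihood tests and Benjamini-Hochberg adjustment over 19093 genes (threshold 0.05). ± is the SE, and 95% intervals use only the fit's 6 residual degrees of freedom. The quasi-likelihood tests also draw on the spread of other genes, so an interval and its p-value need not match. The test was also run on simulated counts in which a small share of genes changed, as many up as down. Such counts lack the shift in composition under dBET6 and cannot speak to its effect. Alternatives were other scalings and filters, DESeq2 1.42.0, limma 3.58.1 on log2(FPKM + 1), a replicate block and leaving out each library. The motif TTTCGCGG, the counts without E2F5 and E2F7 and the ratio with the coding TFDP1 transcript were added after seeing the data.

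The text names all 10 members in every comparison, the 3 genes most correlated with a member (mean of at least 5 CPM), and from each list at most 3 genes per comparison with the smallest p in its main direction, plus RB1, RBL1, RBL2, CCND1, CDKN1A, MYBL2 and HEXIM1 where a result turned on them. The members and lists were chosen with earlier results of these data known. Promoters are from RefSeq (GRCh38.p14).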

Additional observations from a re-analysis of the deposited data

Results flagged for a closer look

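The test of the difference in response between the lines found 7 members whose response to dBET6 differed between resistant and parental cells. As log2 differences, resistant minus parental, these were -1.08 for E2F1, -1.76 for E2F2, -0.95 for E2F3, 0.91 for E2F4, -0.70 for E2F6, -0.84 for E2F8 and 0.39 for TFDP1. E2F1 and E2F2 kept their call under all the other settings that were run. Groups of 2 libraries allow no test for a single library that stands apart.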

How the results depend on the processing

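Over single members and comparisons, other settings than leaving out a library gave 949 values, of which 823 kept direction and call, 65 lost and 21 gained the call and 40 reversed; leaving out a library gave 1080 values, of which 1015 kept both, 23 lost and 16 gained the call and 26 reversed. The cause was not tested.

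Counts of called members that moved by over 1.5 times were these. For the difference in JQ1 response, 0 became 1 with genes of at least 10 CPM, 1 with DESeq2, 2 with only the libraries compared, and 0 to 2 on leaving out a library. For the difference in dBET6 response, 7 became 3 with limma on log2(FPKM + 1), 3 on log2(FPKM + 0.1) and 3 without a filter, and ran from 4 to 8 on leaving out a library. For the lines under DMSO, 4 became 2, 2 and 1 in the same 3 fits. For JQ1 in resistant cells 7 became 4 on log2(FPKM + 0.1), and for dBET6 against JQ1 in resistant cells 10 became 6 with genes of at least 10 CPM. Of the 30 most alike genes 2 stayed with log2(FPKM + 1). Leaving E2F5 and E2F7 uncounted gave 6, 7, 6 and 7 called for JQ1 and dBET6 in parental, then resistant, cells, 3 for the lines and 7 for the difference in dBET6 response.

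Total counts reversed E2F6 (-0.023) and TFDP2 (-0.11) with JQ1 and E2F1 with dBET6 (-0.61) in parental cells, TFDP1 between the drugs (-0.086 parental, -0.41 resistant), E2F2 (-0.0039) and E2F3 (-0.0086) in the difference in JQ1 response and TFDP1 in that to dBET6 (-0.051). Mitochondrial counts reversed E2F6 (-0.18) and TFDP2 (-0.29) with JQ1 and E2F1 with dBET6 (-1.75) in parental cells, E2F6 with JQ1 (-0.35) and E2F7 with dBET6 (-0.62) in resistant cells, TFDP1 between the lines (-0.077), and between the drugs E2F1 (-0.51), E2F2 (-0.12) and TFDP1 (-1.04 and, resistant, -1.02). In the difference in JQ1 response they reversed E2F2 (-0.19), E2F3 (-0.21), E2F4 (-0.022) and E2F6 (-0.17). With no filter TFDP2 with JQ1 was -0.0089 and E2F1 with dBET6 -0.12 in parental cells, and DESeq2 gave TFDP2 -0.0065 there. TFDP1 with dBET6 in resistant cells was 0.24 with genes of at least 10 CPM and 0.021 with RLE size factors. In limma on log2(FPKM + 1), with or without a filter, TFDP1 with dBET6 was 0.00071 (parental) and 0.37 (resistant), and E2F5 0.041 and 0.11 in the differences in JQ1 and dBET6 response; on log2(FPKM + 0.1) these were 0.00073, 0.38, 0.045 and 0.095. Without a filter E2F7 was 0.015 between the lines.

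Values that reversed on leaving out a library ran from -0.17 to 0.13 for E2F1 with dBET6, -0.055 to 0.23 for E2F6 and -0.014 to 0.015 for TFDP2 with JQ1 in parental cells, from -0.19 to 0.0062 for E2F6 and -0.71 to 0.32 for E2F7 between the lines, from -0.14 to 0.25 for E2F2, -0.0047 to 0.28 for E2F6 and -0.11 to 0.070 for E2F8 in the difference in JQ1 response, and from -0.87 to 0.16 for E2F7 in that to dBET6.

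The replicate numbers were shared by all groups. In 4 of 15 pairs of groups same-numbered libraries deviated together by a correlation over 0.1 (range -0.31 to 0.26). These correlations were not tested and cannot show whether same-numbered libraries share a culture or batch. With the replicate block the counts of called members were 7, 9, 7, 9, 4, 10, 10, 0 and 7 over the 9 comparisons, equal to those without it, and 0 of 90 member results changed direction or call. Arms with 2 libraries limit all intervals, and 18 or fewer counts limit E2F7.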
